A study of Mus musculus with 4 samples.

Results

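The 35 genes described here carry glucose into the cell, break it down to pyruvate, settle whether pyruvate leaves as lactate, or belong to the oxygen-sensing system and its usual targets. They were taken by gene symbol from a list of glycolysis and hypoxia genes, chosen with earlier results of these data known. All 35 were found among the 32285 genes of the deposited table, of which 18830 had at least 1 UMI (a molecule counted once by its barcode). They comprise 2 glucose transporters, 11 genes from hexokinase to triose phosphate isomerase, 5 genes of the later steps up to pyruvate, 5 genes that direct pyruvate and lactate, 3 oxygen-sensing genes and 9 genes linked to hypoxia. Over all cells 32 of the 35 reached a level of 10 CPM (the UMIs of a gene scaled to a common total of all UMIs), and Ldhb, Slc16a1 and Egln3 did not.

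Viable CD45+ (immune) cells were sorted from esophageal tissue of 10 mice with induced eosinophilic esophagitis, 5 of them Il20rb knock-out (IL20RB-/-) and 5 wild-type. Il20rb encodes a receptor chain shared by cytokines of the IL-20 family. Every animal of both genotypes had been sensitized on the ear with 1 nmol MC903 (calcipotriol) and ovalbumin (OVA) daily for 14 days, then given drinking water with 1.5 g OVA per litre and a gavage of 50 mg OVA at days 15 and 17, and was killed at day 18, so no unchallenged animals were compared. The labels give no strain, sex or age, and do not say how the knock-out allele was made or in which cells it acts. Each animal carried its own hashtag antibody. The suspensions were pooled before sorting and loaded on 2 wells of a 3′-end droplet system, and the animal is the replicate throughout.

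In glycolysis, glucose enters through transporters such as SLC2A1 and SLC2A3, is trapped by hexokinase, split by aldolase, and oxidised to pyruvate with a net gain of ATP and no use of oxygen. Lactate dehydrogenase A can turn that pyruvate into lactate, which SLC16A3 carries out of the cell. When oxygen is low, the prolyl hydroxylases EGLN1 and EGLN3 no longer mark HIF1A for destruction, and HIF binds the letters ACGTG or GCGTG near genes that include most of these enzymes. Activated macrophages and neutrophils also use this programme at normal oxygen, and neutrophils draw most of their ATP from glycolysis. Since HIF1A is controlled mainly at the protein, Hif1a mRNA is not a measure of HIF activity.

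The letters of the HIF core were common just upstream of these genes. In the RefSeq table (build GRCm38.p6) 32 of the 35 had at least 1 window of the 250 bases before the annotated start, and Slc2a3, Bnip3l and Ndrg1 had none. ACGTG, read on either strand, occurred in a window of 19 of these 32 genes (59.4%), against 18.5% of 27025 genes and 26.8% of 5962 genes that reached 10 CPM here. GCGTG occurred in 21 (65.6%), against 30.9% and 52.0%. The palindrome CACGTG, which holds ACGTG on both strands and is also the letters of the MYC-type E-box, occurred in 5 (15.6%), against 6.86% and 11.0%. Outside that palindrome, ACGTG remained in 17 genes (53.1%), against 12.8% and 18.1%. Below are the windows of 6 members on which the results turn, 5′ to 3′ on the strand of the gene, with ACGTG or its reverse complement in capitals (CACGTG where they overlap). The first lies at chr11:120948817-120949066 (plus strand), the second at chr6:82774455-82774704 (minus), the third at chrX:106186850-106187099 (plus), the fourth at chr7:46845554-46845803 (plus), the fifth at chr6:29272376-29272625 (plus) and the last at chr10:75860278-75860527 (minus).
Slc16a3: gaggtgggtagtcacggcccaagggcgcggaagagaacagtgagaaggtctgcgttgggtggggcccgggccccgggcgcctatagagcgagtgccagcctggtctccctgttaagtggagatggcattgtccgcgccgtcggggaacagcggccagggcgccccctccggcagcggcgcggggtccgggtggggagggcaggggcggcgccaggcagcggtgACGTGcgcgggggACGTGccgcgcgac
Hk2: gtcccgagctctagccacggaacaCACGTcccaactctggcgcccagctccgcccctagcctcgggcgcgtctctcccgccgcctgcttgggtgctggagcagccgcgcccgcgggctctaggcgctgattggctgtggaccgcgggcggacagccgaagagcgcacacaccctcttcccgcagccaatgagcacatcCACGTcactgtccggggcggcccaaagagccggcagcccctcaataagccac
Pgk1: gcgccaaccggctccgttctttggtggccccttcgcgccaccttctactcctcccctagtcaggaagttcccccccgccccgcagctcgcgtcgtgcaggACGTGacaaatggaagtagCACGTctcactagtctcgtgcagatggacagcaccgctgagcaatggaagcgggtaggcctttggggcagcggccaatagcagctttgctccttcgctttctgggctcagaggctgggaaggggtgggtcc
Ldha: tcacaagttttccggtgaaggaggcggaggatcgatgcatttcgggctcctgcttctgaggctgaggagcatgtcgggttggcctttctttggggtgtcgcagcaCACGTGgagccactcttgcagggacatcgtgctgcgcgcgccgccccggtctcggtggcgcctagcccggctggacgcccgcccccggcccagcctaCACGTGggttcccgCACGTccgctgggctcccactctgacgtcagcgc
Hilpda: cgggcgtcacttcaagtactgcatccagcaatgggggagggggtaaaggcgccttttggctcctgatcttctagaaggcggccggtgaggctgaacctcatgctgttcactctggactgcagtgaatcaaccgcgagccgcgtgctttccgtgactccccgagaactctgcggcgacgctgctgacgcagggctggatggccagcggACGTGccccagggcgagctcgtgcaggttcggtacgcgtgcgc
Mif: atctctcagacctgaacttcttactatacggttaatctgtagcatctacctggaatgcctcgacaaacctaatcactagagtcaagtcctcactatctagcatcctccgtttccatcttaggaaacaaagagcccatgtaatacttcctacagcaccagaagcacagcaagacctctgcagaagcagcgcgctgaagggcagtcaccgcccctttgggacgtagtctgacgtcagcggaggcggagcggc
Slc16a3, Hk2 and Pgk1 held 2 matches each, Ldha held 2 palindromes and 1 further match, Hilpda held 1, and Mif held none. A gene can have several annotated starts, and was counted as holding a motif if any of its windows did. Ldha and Hilpda each had another window, at chr7:46846832-46847081 and chr6:29272238-29272487, with no match.

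The table gave 6054 cells with 1000 to 52182 UMIs each. Knock-out animals had 271 to 877 cells and wild-type animals 500 to 897, with 1805883 to 5666994 UMIs summed per animal, and the wells gave 2885 and 3169 cells. The wells shared 2 barcodes, neither with the same hashtag in both. Il20rb had 6 UMIs in the knock-out and 10 in the wild-type animals, too few to check the labels. Cells were clustered on other genes, with all 35 members left out, and 37 of the 44 clusters were named from fixed marker lists, which left 955 cells in 7 unnamed clusters. The main classes were 1440 monocyte-like, 1006 macrophage-like, 820 type 2 conventional dendritic cell-like (cDC2-like), 594 neutrophil-like, 298 type 2 innate lymphoid cell-like (ILC2-like) and 242 T cell-like cells. In their classes, all 13 neutrophil markers, 16 of 19 monocyte markers and 12 of 16 macrophage markers were more than 2-fold above the other cells. The clusters were named from these same lists, so this is no independent check of the names. Because classes were drawn from these same cells, their levels are a description with no test, given per animal with at least 10 cells of a class, over 8 classes and 4 unnamed clusters seen in at least 6 animals.

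Neutrophil-like cells held the highest median level of 9 of the 32 members at or above 10 CPM (28.1%), against 13% of 7446 such genes. These were the glucose transporters Slc2a1 and Slc2a3, the hexokinase Hk3, the regulators Pfkfb3 and Pfkfb4, which make the fructose bisphosphate that speeds up phosphofructokinase, the lactate exporter Slc16a3, and the hypoxia-linked genes Hilpda (an inhibitor of fat breakdown), Vegfa (a vascular growth factor) and Ndrg1. When each cell was scaled to the same total, 7 remained highest there, and Hilpda was highest in ILC2-like and Ndrg1 in type 1 dendritic cell-like (cDC1-like) cells. Neutrophil-like cells were shallow, with a median of 1820.5 UMIs, against 5649.5 in monocyte-like cells, and the part of free RNA in either class was not tested. Wild-type animals 3 and 4 had few of them (1.61% of 809 and 2.40% of 500 cells). In these animals the levels below, and the ends of the ranges, can rest on very few UMIs.

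Slc16a3 was the member with the clearest class. Neutrophil-like cells of 7 animals had from 241 to 544 CPM, with a median of 331, and monocyte-like cells of the 7 animals had from 57.0 to 119 CPM, with a median of 88.3. The 2 ranges did not overlap, and the lowest neutrophil-like animal stood above the highest animal in each of the other 11 classes and unnamed clusters. Neutrophil-like cells held 3.44% of all UMIs and 19.3% of those of Slc16a3. Slc2a3, the high-affinity transporter, had a median of 78.4 CPM (from 55.3 to 386) in neutrophil-like cells, against 1.28 CPM (from 0 to 4.24) in monocyte-like cells of the same animals. T cell-like cells came second for Slc2a3, with a median of 55.6 CPM, and their range overlapped that of neutrophil-like cells. Vegfa had a median of 127 CPM (from 79.3 to 298) in neutrophil-like cells, against 52.0 CPM (from 27.5 to 93.4) in monocyte-like cells, higher in 7 of 7 animals.

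The prolyl hydroxylase Egln3, itself a well-known HIF target, was rare, with 65 UMIs in all cells, of which neutrophil-like cells held 37 (56.9%). Of Hilpda they held 21.1%, of Slc2a3 20.9% and of Pfkfb4 16.5%. Within the class, the cluster led by Csf1, Il1a and Ccl3 (175 cells, 3 animals) carried most of the Hilpda: 172, 561 and 590 CPM were its lowest, median and highest animals, against 51.6, 139 and 143 CPM in the other neutrophil-like cells. That cluster was higher in Hilpda, Vegfa and Pfkfb3 in each of the 3 animals, and lower in Slc2a3, Slc16a3 and Ldha. In all, 5 members were higher in every one of the 3 animals (15.6%) against 10.1% of genes, and 9 were lower (28.1%) against 10.4%.

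Other members were lower in these cells, in a share close to that of all genes. Over all members, 12 of 32 were lower in neutrophil-like cells in every animal (37.5%), against 34.9% of genes, and 4 were higher in every animal (12.5%), against 7.55%. Ldha, which makes lactate, had a median of 136 CPM (from 63.4 to 218) in neutrophil-like cells, against 315 CPM (from 302.9 to 403) in monocyte-like cells of the same 7 animals. Tpi1, the triose phosphate isomerase, had 47.0 CPM (from 20.97 to 110) against 150 CPM (from 102 to 203). Pgk1, the first ATP-yielding enzyme, had 73.4 CPM (from 36.1 to 221) against 278 CPM (from 260 to 342). In all 3 genes every animal was lower in its neutrophil-like cells, and only for Tpi1 did the ranges of the classes touch. The mitochondrial protein gene Higd1a was likewise lower in 7 of 7 animals (median 14.1 against 125 CPM). Hk2 was lower in 6 of 7 animals (median 81.5 against 132 CPM), whereas Aldoa was higher in 2 of 7 and Gapdh and Pfkp in 1 of 7 each. Slc16a1, another monocarboxylate transporter, had 0 UMIs in the neutrophil-like cells, which allows up to 2.47 CPM by counting error alone.

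**Figure D1:**
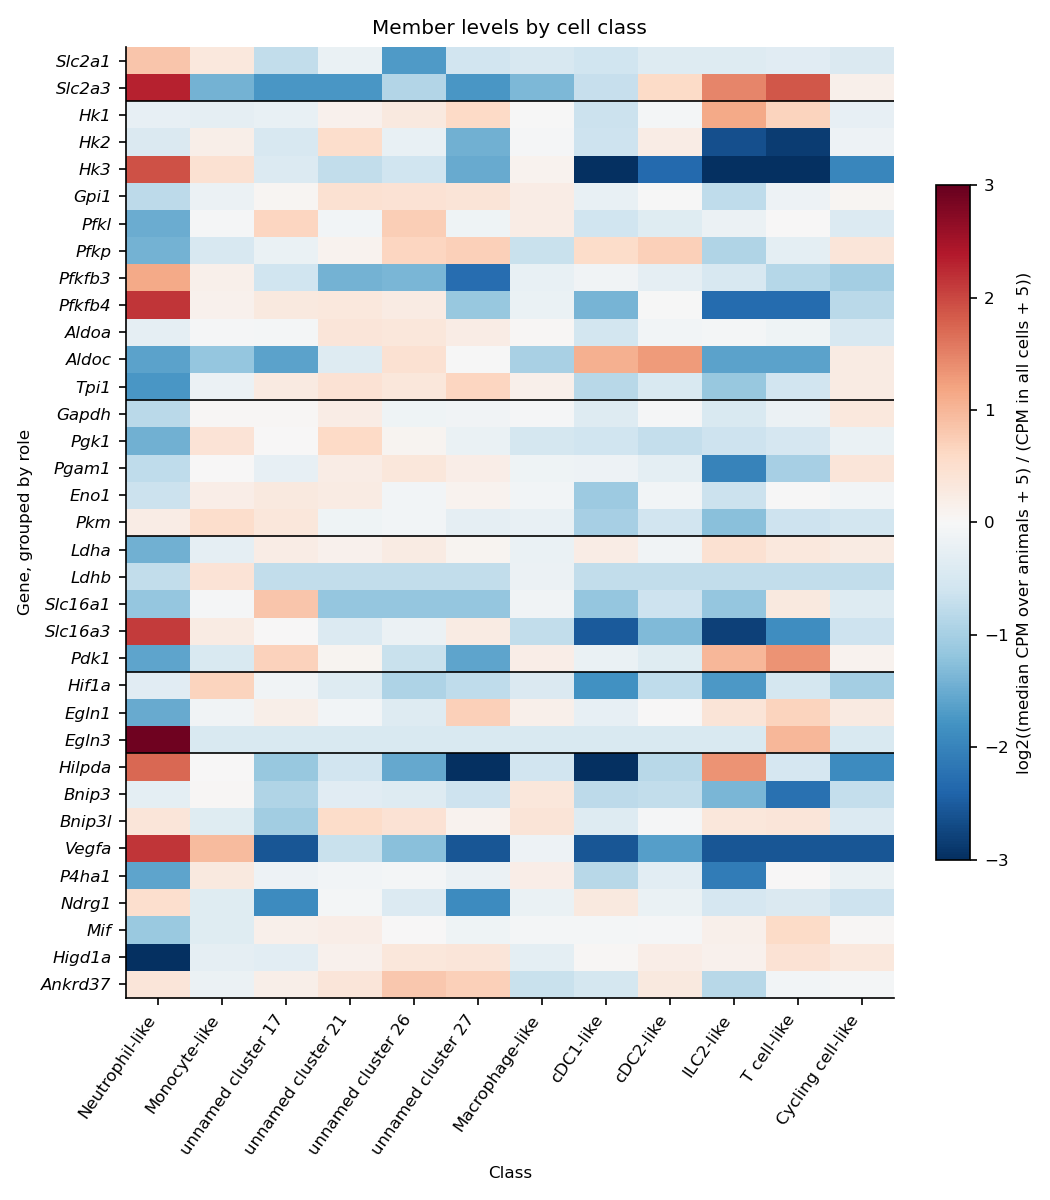
Heat map of the log2 ratio of the median CPM over animals to the CPM in all cells (5 CPM added to both), for each member (rows, grouped by role) and each of 12 classes or unnamed clusters (columns). The neutrophil-like column is red for Slc2a3, Hk3, Pfkfb4, Slc16a3, Egln3, Hilpda and Vegfa and blue for Tpi1, Pgk1, Ldha and Higd1a.

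Other classes led for other steps. Monocyte-like cells had the highest median of the pyruvate kinase Pkm (689 CPM), of Hif1a (397 CPM, from 222 to 644) and of the collagen prolyl hydroxylase P4ha1 (71.8 CPM). ILC2-like cells led for the hexokinase Hk1 (73.6 CPM) and for Ldha (528 CPM, from 429 to 738), and were second for Hilpda (119 CPM), while Slc16a3 was nearly absent from them (6.27 CPM). T cell-like cells led for Mif, a cytokine gene (433 CPM), and for Higd1a (204 CPM). They also led for Pdk1, a kinase that restrains pyruvate oxidation in mitochondria (33.3 CPM). Cycling cell-like cells led for Gapdh (1181 CPM) and Pgam1 (253 CPM), and cDC2-like cells for Pfkp (200 CPM) and Aldoc (31.5 CPM). In none of these did the lowest animal of the leading class stand above the highest animal of the second.

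The unnamed clusters and the remaining members completed the order. The cluster led by Mt3, Mmp12 and Lpl (unnamed cluster 21) had the highest medians of Hk2 (163 CPM), Gpi1 (265 CPM), Aldoa (521 CPM), Pgk1 (318 CPM) and Bnip3l, a mitochondrial clearance receptor (104 CPM). Macrophage-like cells led for its relative Bnip3 (24.6 CPM). Unnamed clusters 17, 26 and 27 led for other members: cluster 17 for Eno1 (423 CPM), cluster 26 for Pfkl (51.7 CPM) with Ankrd37 (29.7 CPM), and cluster 27 for Tpi1 (265 CPM) with the oxygen sensor Egln1 (51.3 CPM). When each cell was scaled to the same total, Eno1 was highest in monocyte-like cells, Ankrd37 in cluster 27 and Bnip3l in ILC2-like cells. The ranges over animals overlapped with the next class for each member other than Slc16a3.

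A macrophage-like cluster had high levels of the whole lower pathway. This cluster of 214 cells was led by Spp1, Gpnmb and Ctsl, and 1 knock-out and 5 wild-type animals had at least 10 of its cells. Of the 37 clusters with at least 50 cells it had the highest pooled level of 9 of 32 members (28.1%), against 2.43% of genes: Gpi1, Pfkl, Aldoa, Tpi1, Gapdh, Pgam1, Eno1, Ldha and Mif. In it 24 of the 32 members lay above their level in all cells, with a median ratio of 1.62, against 47.4% and 0.977 over all genes. That count was not particular to it. The monocyte-like cluster led by Cxcl3, Cxcl1 and Mmp19 had 26 (median ratio 1.14), and the unnamed cluster led by Ccl24, Cxcl3 and Arg1 had 24 (1.24). Its cells were deep, with a median of 8641.5 UMIs in the Spp1 cluster, against 5125 in all macrophage-like cells, and the part of depth was not tested.

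The difference from the other macrophage-like cells was seen in each animal. Gapdh, the enzyme that starts energy recovery, had 985 to 2197 CPM (median 1473) in the Spp1 cluster of 6 animals, against 823 to 978 CPM (median 909) in the other macrophage-like cells. Pgam1, phosphoglycerate mutase, had 249.99 to 541 CPM (median 431), against 96.4 to 236 CPM (median 137). Ldha had 350 to 912 CPM (median 539), against 272 to 370 CPM (median 306.2). For Gapdh and Pgam1 the ranges of the cluster and the other cells did not overlap, and for Ldha they overlapped slightly. Vegfa had 39.6 to 100.2 CPM (median 56.3), against 0 to 14.3 CPM (median 6.15), with no overlap. In every one of the 6 animals 11 members were higher in the cluster (34.4%), against 6.63% of genes, and none was lower, against 8.34%. The glucose transporter Slc2a1 and the regulators Pfkfb3 and Pfkfb4 were not among the 11.

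**Figure D2:**
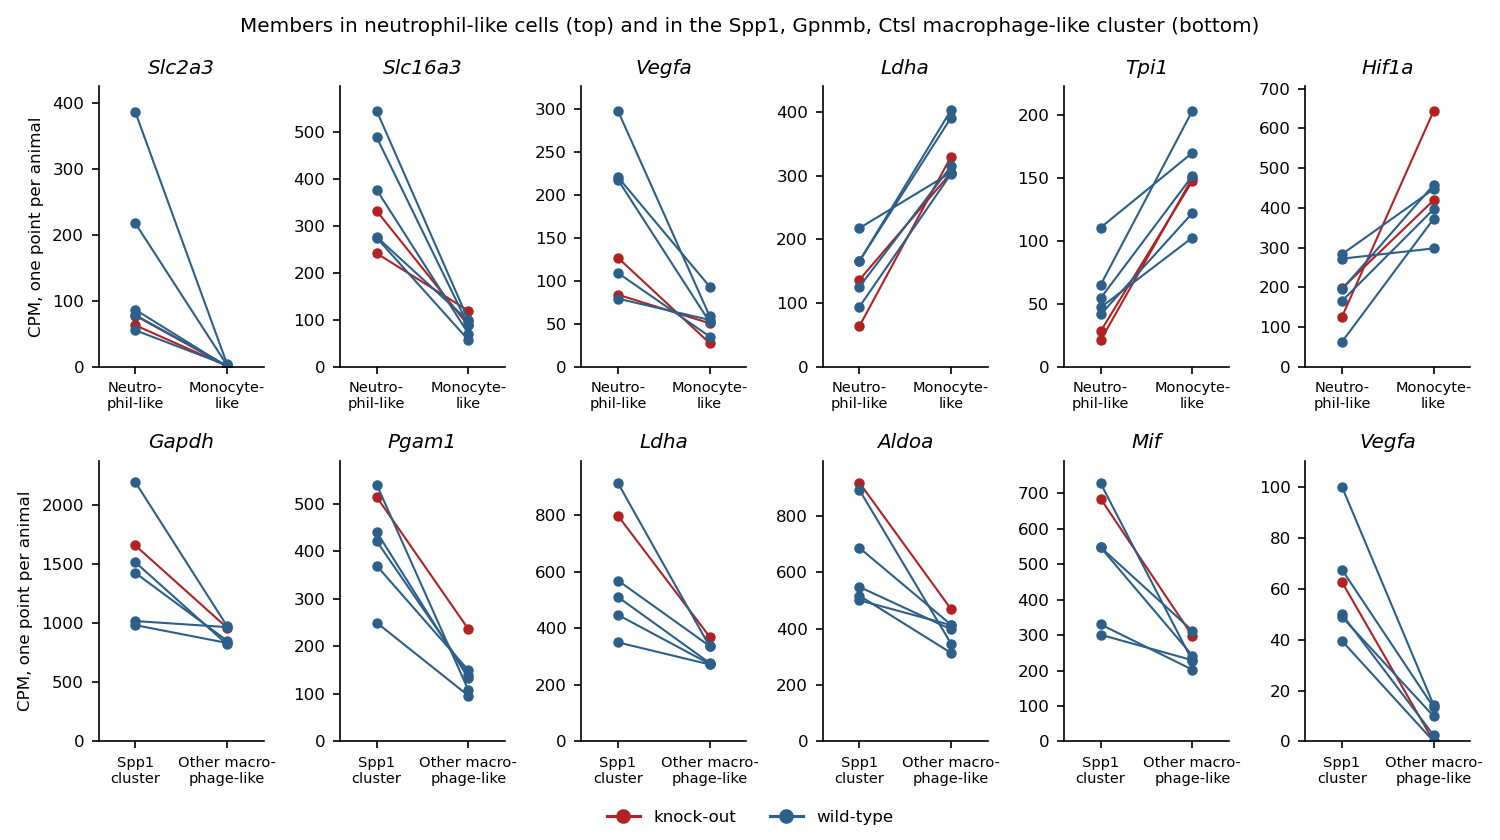
CPM of 6 members in neutrophil-like and monocyte-like cells of 7 animals (top) and of 6 members in the Spp1 cluster and the other macrophage-like cells of 6 animals (bottom), with lines joining cells of 1 animal (red, knock-out; blue, wild-type). Slc2a3, Slc16a3 and Vegfa are higher and Ldha, Tpi1 and Hif1a lower in each neutrophil-like sample, and all 6 genes of the lower row are higher in each Spp1 cluster sample.

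No member was called as different between the genotypes in the CD45+ cells as a whole. Of 34 members tested (Egln3 was too rare) 0 were called at an adjusted p under 0.05 by edgeR's quasi-likelihood test, against 4 of 10175 genes (0.0393%), and 0 reached an unadjusted p under 0.05. DESeq2 also called 0. Knock-out cells had the higher fitted level for 22 of the 34, with a median log2 fold of 0.05, against 0.01 over all genes. In these bulk sums, fewer cells of a type and less RNA per cell cannot be told apart.

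Tpi1 had the lowest p. It had 195, 171, 188, 186 and 184 CPM (after edgeR's TMM scaling, as in all fitted values below) in knock-out animals 1 to 5, against 192, 144, 165, 162 and 125 CPM in wild-type animals 1 to 5. The knock-out animals lay close together and the wild-type animals spread around and below them, so the groups overlapped. The means were 185 ± 8.83 and 158 ± 25.05 CPM (SD, n = 5 each), and the log2 fold was 0.23 ± 0.11 (SE, adjusted p = 0.774). The next 9 by p were Pdk1 (log2 fold of -0.50), Higd1a (0.14), Ndrg1 (-0.34), Pfkp (0.18), Slc16a1 (-0.55), Ankrd37 (0.26), P4ha1 (0.33), Hilpda (-0.89) and Hk1 (0.18), each with an adjusted p above 0.7. Hilpda had 47.2, 11.2, 17.9, 17.8 and 45.6 CPM in knock-out animals 1 to 5, against 135, 44.9, 28.8, 20.3 and 34.2 CPM in wild-type animals 1 to 5. The groups overlapped, and wild-type animal 1 stood far above all others. Pdk1 had 10.8, 7.37, 11.0, 5.80 and 5.18 CPM in the knock-out animals, against 12.2, 7.53, 14.8, 12.7 and 9.62 CPM in the wild-type animals.

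Animals differed more than genotypes. Hif1a had 364, 119, 127, 202 and 509 CPM in knock-out animals 1 to 5, against 421, 192, 140, 161 and 196 CPM in wild-type animals 1 to 5. Knock-out animals 1 and 5 and wild-type animal 1 stood well above the other 7. The same 3 animals had the largest share of monocyte-like plus neutrophil-like cells (49.3, 57.0 and 57.7% of their cells, against 3.69 to 33.9% in the others). Wild-type animal 1 alone was 35.3% neutrophil-like, and it had the highest Slc16a3 of all animals (184 CPM, against 43.0 to 48.1 CPM in the other wild-type animals). With those 2 classes left out, Hif1a in CPM was still highest in wild-type animal 1 (352) and knock-out animal 1 (279). The part of cell mixture in these differences was not tested.

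**Figure D3:**
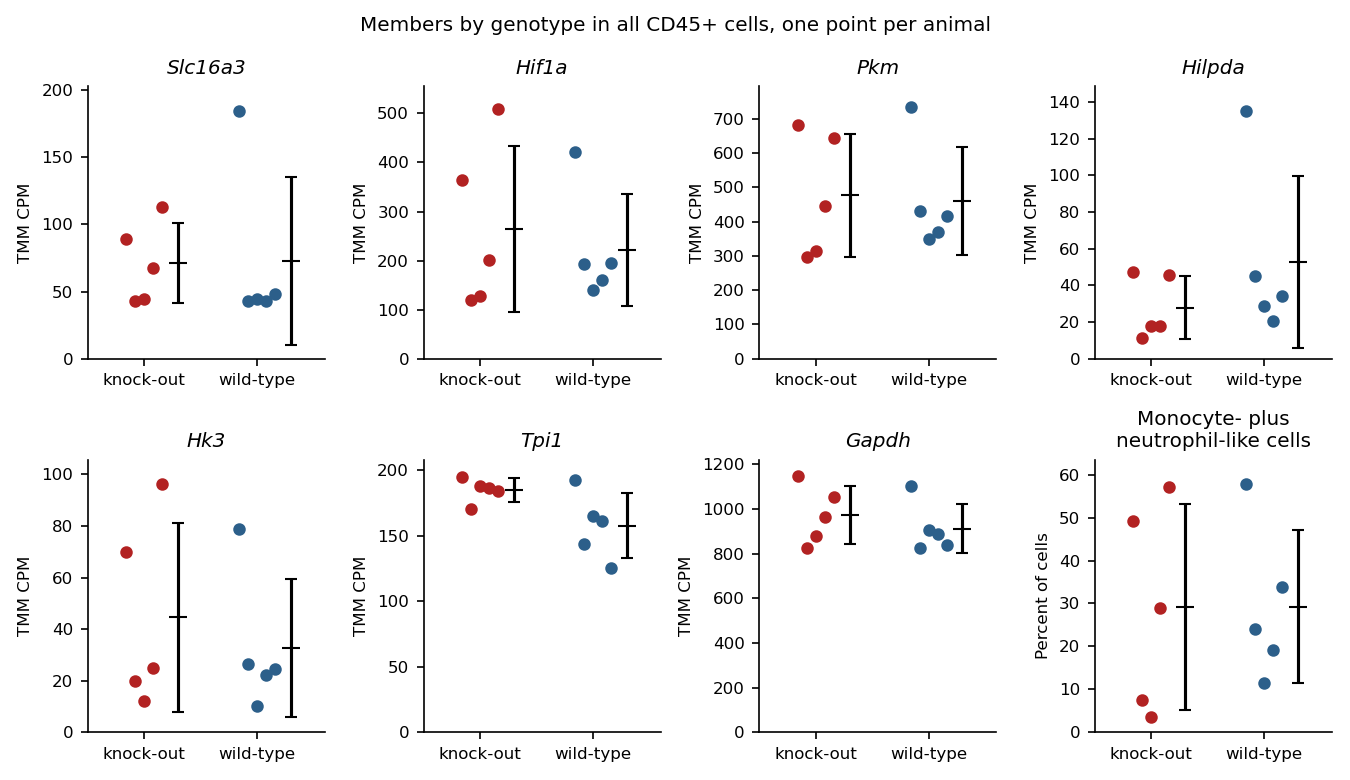
TMM-scaled CPM of 7 members in all CD45+ cells, and the percent of cells that were monocyte-like or neutrophil-like, by genotype, with 1 point per animal and the mean ± SD (n = 5 each) in black. Both genotypes overlap in every panel, and the animals with high Slc16a3, Hif1a and Pkm are those with many monocyte-like and neutrophil-like cells.

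Within single classes the answer was the same. No member was called in any of the 7 classes with at least 3 animals per genotype, where the share of all genes called was 0.0532% in macrophage-like, 0.0356% in cDC2-like, 0.452% in ILC2-like, 0% in T cell-like, 0.0478% in cDC1-like and 0.0240% in cycling cell-like cells, and 0.114% in monocyte-like cells. At an unadjusted p under 0.05 there were 2 of 27 members tested in monocyte-like cells (762 of 5271 genes), 1 of 26 in cDC2-like cells (236 of 5621 genes) and 0 in the other 5 classes. With no filter on low counts edgeR called Hk3 in monocyte-like cells (adjusted p = 0.00374) and 1 member, lower, in the no-panel cells described next. In monocyte-like cells Hilpda had 41.2, 7.70, 18.7 and 42.0 CPM in knock-out animals 1, 2, 4 and 5, against 72.2, 50.7, 57.5, 46.4 and 44.2 CPM in wild-type animals 1 to 5. Every knock-out animal lay below every wild-type animal, with a log2 fold of -0.68 ± 0.27 (SE, edgeR adjusted p = 0.260). The share of all genes separated in this way was not counted, so the separation has no background to be read against. Knock-out animal 2 had few monocyte-like cells (7.18% of its 390 cells), so its value rests on few UMIs. Hk3 had 89.2, 30.8, 59.9 and 133 CPM in those knock-out animals, against 59.7, 53.1, 31.2, 66.2 and 20.8 CPM in the wild-type animals. The groups overlapped, with a log2 fold of 0.95 ± 0.36 (SE, adjusted p = 0.249).

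Hif1a was also compared in monocyte-like cells that were positive for none of the state panels given further on. There Hif1a had 206, 148, 193 and 106 CPM in knock-out animals 1, 2, 4 and 5, against 262, 223, 372 and 344 CPM in wild-type animals 1, 3, 4 and 5. The groups did not overlap, with a log2 fold of -0.86 ± 0.24 (SE, edgeR adjusted p = 0.159 over 2804 genes, of which 0.107% were called). The share of all genes without overlap was not counted, so this separation has no background either. No member was called there or in the Cxcl10 state, where 0.0932% of genes were. In cDC2-like cells Hilpda had a log2 fold of -0.91 ± 0.42 (SE, adjusted p = 1.00). Neutrophil-like cells were not tested between genotypes, since only 2 knock-out animals had 10 or more of them and the minimum was set at 3 per genotype. A difference in the genotype effect between monocyte-like and macrophage-like cells was called for no member (0 of 5367 genes by edgeR, with 287 genes and 0 members at an unadjusted p under 0.05). Between monocyte-like and cDC2-like cells it was also called for no member (2 of 5431 genes, 0.0368%, with 453 genes and 2 members at an unadjusted p under 0.05).

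Of 97 other genes of glycolysis, glycogen, pentose phosphate, pyruvate entry and HIF biology, 73 were tested in all CD45+ cells and 0 were called. In the classes and states 1 gene was called in each of 2 fits. Ddit4, a stress-induced brake on the mTOR kinase, was lower in knock-out cDC2-like cells, with a log2 fold of -1.46 ± 0.24 (SE, edgeR adjusted p = 0.0203). Hmox1, heme oxygenase, was lower in knock-out monocyte-like cells of the Cxcl10 state, with a log2 fold of -2.25 ± 0.21 (SE, edgeR adjusted p = 7.99e-05).

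Monocyte-like cells were then split by 4 small marker panels, none of which holds a member: Cxcl10, Ifit2 and Rsad2 (interferon-induced genes), Arg1 and Ccl24 (genes of alternatively activated cells), Cxcl1 and Mmp19, and Ace, Treml4 and Spn (genes of patrolling monocytes). A cell belonged to a state when it had at least 3 UMIs of 1 panel and fewer than 3 of each other panel, and was compared with no-panel cells of the same animal. There were 378 cells of the Cxcl10 state, 107 of the Cxcl1 state, 46 of the Arg1 state, 18 of the Ace state and 350 with no panel, and 541 cells positive for several panels were left out. Median depths were 5413.5 UMIs in the Cxcl10 state, 5614 in the Cxcl1 state and 5001.5 with no panel. Of the no-panel cells 207 (59.1%) came from the cluster led by Gm9733, Mgst1 and Gsr. The largest sources of Cxcl10-state cells were the clusters led by Gm9733, Trim30c and Cxcl9 (27.8%) and by Vcan, Ifi213 and Rin2 (25.4%). Of the Cxcl1-state cells 52.3% came from the cluster led by Cxcl3, Cxcl1 and Mmp19. State folds thus also compare clusters, and the part of this was not tested. No animal had 10 cells of the Ace state together with 10 no-panel cells, so it was not compared.

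In the Cxcl10 state, Hif1a, the hexokinase genes Hk2 and Hk3 and some late enzymes were higher, and 2 members were lower. It was compared in 6 animals (3 of each genotype), and 20 members were tested. Of these, 6 rose (30.0%, against 12.7% of 3133 genes) and 2 fell (10.0%, against 10.1%), and the median log2 fold was 0.32 over the members and -0.04 over all genes. In all 715 genes (22.8%) were called. The 5 genes of the later steps all had positive folds, and 2 of them were called.

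Hif1a had 335 to 784 CPM (median 451) in Cxcl10-state cells, against 103 to 364 CPM (median 228) in no-panel cells. It was higher in the state in 6 of 6 animals although the ranges overlapped, with a log2 fold of 1.13 ± 0.29 (SE, adjusted p = 0.0228). Hk3, a hexokinase of myeloid cells, had 28.8 to 162 CPM (median 73.2) in the state, against 9.53 to 64.8 CPM (median 40.3), again higher in 6 of 6 animals (log2 fold of 1.07 ± 0.26, adjusted p = 0.00409). Hk2, the inducible hexokinase, had 115 to 215 CPM (median 144), against 47.7 to 139 CPM (median 76.5). It was higher in 5 of 6 animals, the exception being knock-out animal 1 (log2 fold of 0.72 ± 0.22, adjusted p = 0.0213).

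Further along the pathway the changes were smaller. Pgam1 had 159 to 328 CPM (median 194) in the state, against 73.8 to 188 CPM (median 151), higher in 5 of 6 animals (log2 fold of 0.56 ± 0.17, adjusted p = 0.0238). Pkm had 640 to 861 CPM (median 757), against 520 to 761 CPM (median 577), higher in 6 of 6 (log2 fold of 0.35 ± 0.11, adjusted p = 0.0219). Mif had 122 to 564 CPM (median 239), against 111 to 219 CPM (median 164), higher in 6 of 6 (log2 fold of 0.64 ± 0.17, adjusted p = 0.00792). Gapdh and Ldha had folds of the same sign that missed the threshold (0.29 ± 0.12 and 0.35 ± 0.14, edgeR adjusted p = 0.0768 and 0.0750).

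The 2 members that fell stand at the start of glycolysis and in mitochondrial clearance. Gpi1, the isomerase that follows hexokinase and also stands at the branch to the pentose phosphate pathway, had 101 to 166 CPM (median 142) in the state, against 153 to 314 CPM (median 209). It was lower in 6 of 6 animals, with a log2 fold of -0.68 ± 0.16 (SE, adjusted p = 0.00272). Bnip3l had 41.0 to 84.9 CPM (median 57.2), against 58.7 to 124 CPM (median 109), also lower in 6 of 6 (log2 fold of -0.82 ± 0.22, adjusted p = 0.00784). Slc16a3 was higher in the state in 3 of 6 animals and lower in 3 (median 71.3 and 75.1 CPM, log2 fold of 0.07 ± 0.24).

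**Figure D4:**
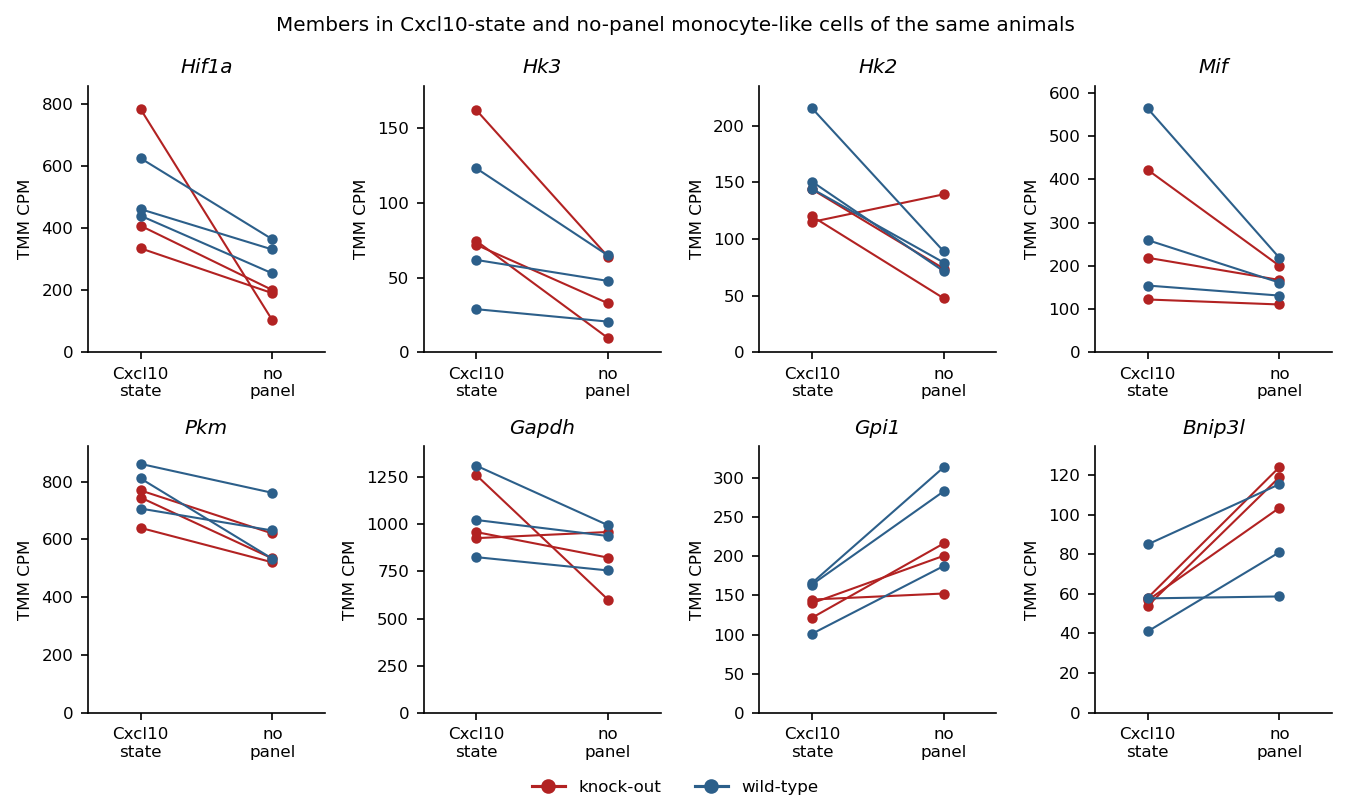
TMM-scaled CPM of 8 members in Cxcl10-state and no-panel monocyte-like cells, with lines joining cells of 1 animal (red, knock-out; blue, wild-type). Hif1a, Hk3, Mif and Pkm are higher in the state in 6 of 6 animals, and Gpi1 and Bnip3l are lower in 6 of 6.

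Of the 26 other pathway genes tested in this state 4 rose and 4 fell, shares close to the 12.7% and 10.1% of all genes. Those that rose were Hmox1 (log2 fold of 1.79, adjusted p = 0.0438), Cited2, a HIF-induced inhibitor of HIF (1.04, adjusted p = 0.00199), the lipid droplet coat gene Plin2 (0.90, adjusted p = 0.000147) and Rbpj (0.36, adjusted p = 0.0370). Those that fell were the mitochondrial pyruvate carrier gene Mpc1 (-0.81, adjusted p = 0.00762), the pentose phosphate genes G6pdx (-0.82, adjusted p = 0.0178) and Pgls (-0.60, adjusted p = 0.0134), and the glycogen phosphorylase Pygl (-1.20, adjusted p = 0.00376).

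Marker levels of other cells moved with the Cxcl10 state. The 13 neutrophil markers summed to 679 to 1641 CPM in the state (median 1137), against 404 to 1017 CPM in no-panel cells (median 501), and were higher in 5 of 6 animals, with Retnlg at 0. The 16 macrophage markers summed to 3198 to 6064 CPM (median 4179), against 2258 to 4370 CPM (median 3195), higher in 5 of 6. The 13 cycling cell markers summed to 0 to 17.5 CPM (median 10.2), against 7.53 to 53.9 CPM (median 26.97), lower in 6 of 6, and the cDC2 markers were higher in 2 of 6. Their part in the result was not tested. The state's member calls were 1 in well 1 and 5 in well 2 taken alone, and DESeq2 called 2, Hif1a and Mif. Leaving out 1 animal at a time kept every direction, and Hk3, Gpi1 and Mif kept their calls each time. Hif1a lost its call without knock-out animal 4 or wild-type animal 4 (edgeR adjusted p = 0.0661 and 0.0877), and Bnip3l without knock-out animal 1 (0.0650). Hk2 lost it without knock-out animal 5 or wild-type animal 1 (0.0912 and 0.0799). Pgam1 lost it without knock-out animal 1, 4 or 5 (0.140, 0.0511 and 0.0672), and Pkm without knock-out animal 1 or 5 or wild-type animal 1 (0.0618, 0.0509 and 0.0816). A difference in the state effect between the genotypes was called for no member (0 of 3133 genes by edgeR, 171 at an unadjusted p under 0.05, and 0 members among those).

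In the Arg1 state 14 members rose under a gate chosen after the data were seen, and 5 under a planned gate on thinned cells. Under the first gate 1 animal had enough cells, so no test was possible. The wider gate gave cells positive for several panels to the panel with most UMIs and added the unnamed clusters whose best marker list was the monocyte one. These 4 clusters had not met the naming rule: 3 raised only 1 or 2 of the 19 monocyte markers, and the one led by Ccl24, Cxcl3 and Arg1 raised 6 but had other leading genes. The no-panel cells of this gate numbered 580 in place of 350. Of these, 207 (35.7%) came from the cluster led by Gm9733, Mgst1 and Gsr, 91 from unnamed cluster 17 and 87 from unnamed cluster 26. The Arg1 state of this gate held 328 cells, of which 131 (39.9%) came from the unnamed cluster led by Ccl24, Cxcl3 and Arg1. In all 8 animals (3 knock-out and 5 wild-type) could be compared. Of 19 members tested 14 rose (73.7%, against 11.7% of 2912 genes) and 1 fell (5.26%, against 10.1%). The median log2 fold was 0.70 over the members and -0.01 over all genes.

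Vegfa and Hif1a had the largest folds. Vegfa had 11.9 to 171 CPM (median 93.6) in the state, against 0 to 66.3 CPM (median 16.5) in no-panel cells of the same animals. It was higher in 7 of 8, with a log2 fold of 1.98 ± 0.42 (SE, adjusted p = 0.00403). Hif1a had 237 to 1306 CPM (median 679), against 107 to 329 CPM (median 241), higher in 7 of 8 (log2 fold of 1.50 ± 0.34, adjusted p = 0.0134). Slc16a3 had 84.7 to 259 CPM (median 139), against 58.5 to 111 CPM (median 69.0), higher in 8 of 8 (log2 fold of 1.06 ± 0.18, adjusted p = 0.000164).

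Tpi1 and Ldha, steps of the pathway, rose with them, as did the cytokine gene Mif. Mif had 273 to 592 CPM (median 391.6) in the state, against 150 to 330 CPM (median 218), higher in 8 of 8 (log2 fold of 0.93 ± 0.14, adjusted p = 5.88e-05). Tpi1 had 261 to 507 CPM (median 296), against 106 to 251 CPM (median 211), with no overlap between the ranges (log2 fold of 0.86 ± 0.17, adjusted p = 0.000846). Ldha had 415 to 672 CPM (median 543), against 306.8 to 404 CPM (median 362), also without overlap (log2 fold of 0.56 ± 0.12, adjusted p = 0.00168). Each of these 3 genes was higher in the state in every animal.

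The remaining called members rose by less or in fewer animals. Pfkl, a phosphofructokinase, had 41.7 to 109 CPM in the state, against 17.2 to 60.4 CPM, higher in 7 of 8 (log2 fold of 1.16). Pgam1 had 213 to 429 CPM, against 137 to 292 CPM, and Pgk1 had 308.4 to 516 CPM, against 160.0 to 380 CPM, both higher in 8 of 8 (0.77 and 0.70). Hk2 (0.80), Pkm (0.47) and Aldoa (0.36) were higher in 7 of 8, Gapdh (0.40) in 6 of 8 and P4ha1 (0.87) in 5 of 8. The edgeR adjusted p of these 8 lay between 0.000508 for Pgam1 and 0.0408 for Aldoa. Bnip3l had 0 to 109 CPM (median 60.8) in the state, against 76.1 to 123 CPM (median 101), lower in 7 of 8 (log2 fold of -0.76 ± 0.23, adjusted p = 0.0204).

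The pentose phosphate pathway, which leaves glycolysis at glucose 6-phosphate, went the other way, and not in the Arg1 state alone. Of its 5 tested genes 4 fell there, against 10.1% of all genes: G6pdx (log2 fold of -0.98, adjusted p = 0.00659), Pgls (-0.64, adjusted p = 0.0186), Tkt (-0.50, adjusted p = 0.00480) and Taldo1 (-0.52, adjusted p = 0.00439). Mpc1 fell too (-0.80, adjusted p = 0.00296). G6pdx, Pgls and Mpc1 also fell in the Cxcl10 state, Taldo1 in the Cxcl1 state, and G6pdx in the Cxcl1 state under the wider gate. All were compared with no-panel cells, whose part in these falls was not tested. Of 12 tested genes among other HIF-linked targets 6 rose in the Arg1 state, against 11.7% of all genes. Among them were Hmox1 (2.00, adjusted p = 0.00739), Zfp36l1 (1.09, adjusted p = 1.88e-05) and Plin2 (1.02, adjusted p = 9.31e-06). Each p is from edgeR's quasi-likelihood test with adjustment over the 2912 genes.

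The 16 macrophage markers summed to 6357 to 9285 CPM (median 7754) in Arg1-state cells, against 2576 to 4576 CPM (median 3350) in no-panel cells, with no overlap. The 13 neutrophil markers summed to 249 to 1490 CPM (median 914), against 194 to 870 CPM (median 332), higher in 8 of 8 animals. Their part in the rise was not tested. Leaving out 1 animal at a time gave 11 to 17 calls, and DESeq2 gave 13. Aldoa lost its call in 6 of the 8 fits with 1 animal left out (edgeR adjusted p up to 0.114), P4ha1 in 5 (up to 0.0949), Gapdh in 4 (up to 0.107) and Bnip3l in 3 (up to 0.100), and the other 11 kept theirs. Within the named monocyte-like cells, giving cells to the panel with most UMIs gave 14 calls in 4 animals, and a gate on cells thinned to 2000 UMIs gave 5 calls in 3 animals.

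The cluster led by Ccl24, Cxcl3 and Arg1, taken by itself (169 cells), had the highest pooled level of 4 members among the 37 clusters (12.5%, against 1.64% of genes): Hif1a (786 CPM), Pkm (887 CPM), Pgk1 (450 CPM) and Bnip3 (55.2 CPM). In its 3 animals with at least 10 cells Hif1a was at 701, 791 and 1143 CPM from lowest to highest, against 419, 447 and 458 CPM in monocyte-like cells, with no overlap. Of the 32 members, 6 were higher than in monocyte-like cells in each of the 3 animals (18.75%), against 14.3% of genes. In turn 3 were lower (9.38%), against 19.9% of genes. Hif1a, Pgk1 and Bnip3 were among the 6, and Pkm was not.

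In the Cxcl1 state edgeR called 1 member and DESeq2 called 0. It was compared in 5 animals (1 knock-out and 4 wild-type), where 18 members were tested and 80 of 2114 genes were called (3.78%, of them 2.51% higher). Hilpda had 178, 79.5, 101, 98.1 and 81.0 CPM in the Cxcl1-state cells of knock-out animal 5 and wild-type animals 1, 3, 4 and 5. In their no-panel cells it had 5.24, 29.8, 21.8, 8.63 and 34.5 CPM. The groups did not overlap, with a log2 fold of 2.10 ± 0.44 (SE, adjusted p = 0.00522). The filter on low counts worked by state, and a gene high in 1 state alone can pass it. The p is thus no independent support for the difference, and the low no-panel values rest on few UMIs. Without wild-type animal 5 Hilpda was not among the genes tested and 0 members were called, and without wild-type animal 4 there were 3. Of the 24 other pathway genes tested Anxa2 (log2 fold of 0.48, adjusted p = 0.00118) and Bhlhe40 (0.88, adjusted p = 0.0481) rose and Taldo1 (-0.55, adjusted p = 0.0217) fell. Under the wider gate, with 9 animals, Hilpda was not among the genes tested, and 4 of 17 members tested (Pfkp, Pgk1, Ldha and Mif) rose, where 8.52% of genes were called (4.40% higher).

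**Figure D5:**
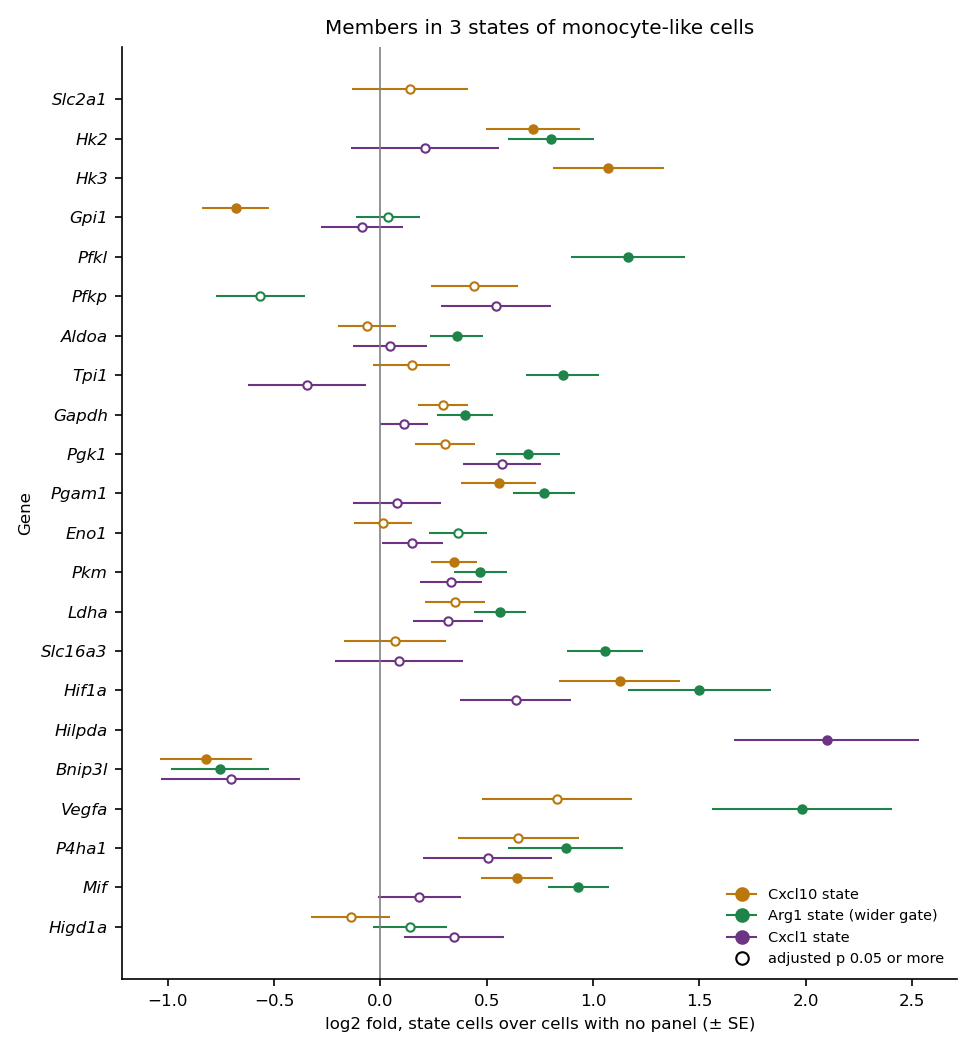
Log2 fold ± SE of each tested member in Cxcl10-state (orange), Arg1-state (green, wider gate) and Cxcl1-state (purple) cells over no-panel cells of the same animals, with open points at an adjusted p of 0.05 or more. Arg1-state folds lie to the right for 14 members called there, from 0.36 for Aldoa to 1.98 for Vegfa, and Bnip3l lies to the left in each state.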

How the data were processed

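The deposited table holds UMI counts per gene and cell, as the authors filtered it: no cell had fewer than 501 genes or more than 9.99% mitochondrial counts. Cell Ranger 6.0.1, R 4.0.5 and build mm10 are named per the submitters' processing notes. Genotype comes from the hashtag of each cell. The 35 members, the marker and pathway lists and the state panels were chosen with earlier results of these data known.

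Cells were normalised, reduced to 30 components of 2000 variable genes without the members, joined to 15 neighbours and clustered (Leiden, resolution 3) with scanpy 1.11.5 in Python 3.11.15. A doublet caller marked 3 cells (0.0496%), which is not a working result, so no cell was removed, and leaving out the top 5% of scores (276 cells) was an alternative. Counts were summed per animal where at least 10 cells were present, with at least 3 animals a group. They were tested with edgeR 4.0.16 (R 4.3.3; robust quasi-likelihood test, its filter on low counts, TMM) with Benjamini-Hochberg adjustment over all genes tested, at 0.05. State effects had the animal as a block. Every adjusted p is from that test unless another is named. DESeq2 1.42.0, other size factors, no filter, each animal left out, each well alone, other gates and cells thinned to 2000 UMIs were alternatives. The wider gate was added after seeing the data. CPM is not divided by gene length, so levels are compared within a gene. Other copies of the enzymes had few counts (Eno3 319, Eno1b 110, Pfkm 39 UMIs). Values are given for members past the threshold and, in all CD45+ cells, for members with the lowest p.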

Additional observations from a re-analysis of the deposited data

Results flagged for a closer look

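In 18 of 122 groups of animals examined, 1 animal stood apart from the rest of its genotype by Dixon's gap rule, which chance meets in about 1 group in 20. All values are TMM-scaled CPM, with the nearest other animal of the same genotype in parentheses.

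In all CD45+ cells, 11 of the 18 were high values of wild-type animal 1. The transporters were Slc2a1 at 54.2 (25.4) and Slc16a3 at 184 (48.1). The enzymes were Hk2 at 133 (103), Hk3 at 79.0 (26.5), Pfkfb4 at 34.7 (17.3), Aldoa at 482 (374), Gapdh at 1103 (904), Pgk1 at 292 (188) and Pkm at 736 (431). Hif1a was at 421 (196) and Hilpda at 135 (44.9). This animal also had the largest share of neutrophil-like cells, 35.3%, and the part of that share was not tested.

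The other 7 came from 5 animals. Knock-out animal 5 was high in Pfkfb3 at 38.5 (19.9), and again within monocyte-like cells at 46.8 (25.7). Knock-out animal 3 was low in Pfkfb4 at 10.5 (19.4) and high in Egln1 at 38.4 (28.98). Wild-type animal 2 was low in Ldhb at 1.04 (3.98), a gene with few UMIs, and wild-type animal 5 was low in Mif at 228 (287). Within monocyte-like cells knock-out animal 2 was low in Gapdh at 886 (1033).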

How the results depend on the processing

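Under the alternatives no result reversed. Of the counts and values that answer a comparison, 183 kept their side and 18 moved. Of values of single genes, 461 stayed as in the main fit, called or not called, 71 lost a call and 1 gained one. The 461 include genes that had no call to lose, so they do not measure how often a call was kept. With no filter on low counts 1 member was called between genotypes in monocyte-like cells (Hk3, higher, adjusted p = 0.00374 by edgeR) and 1 in no-panel cells. For the Cxcl10 state (8 members) DESeq2 called 2, well 1 alone 1, well 2 alone 5, and the panel with most UMIs, added after seeing the data, 13, and leaving out each animal gave 5 to 8. For the Arg1 state (15) thinned cells gave 5, adding only the unnamed clusters gave 7, and leaving out each animal gave 11 to 17. For the Cxcl1 state (1) DESeq2 called 0, leaving out the top doublet scores 2, a gate of 6 UMIs 2, each of the 3 added gates 4, and leaving out each animal gave 0 to 3. The causes were not tested. No paired analysis was possible between genotypes because each hashtag number marks 1 animal and is not shared across them. Neutrophil-like cells were tested in no fit. Members under about 10 CPM over all cells rest on few UMIs, and in animals with few cells of a class or cluster much higher levels do too.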
